A study of Homo sapiens with 6 samples.

Results

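The 40 genes described here encode MYC, its partner MAX and the nucleolar proteins that transcribe, modify, cut and fold ribosomal RNA and assemble it with ribosomal proteins. They were taken by gene symbol from a table of 58735 genes, and each symbol matched 1 row. Of the 40, 39 reached at least 1 FPKM in at least 3 libraries and were tested among 13074 genes, and NOP2 did not reach that level. FPKM is the number of fragments on a gene, scaled by gene length and library size.

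RNA was sequenced from Hep-G2, an established human liver cancer line, after lentiviral delivery of a short hairpin RNA and puromycin selection. The sh-NC group carried a negative control hairpin (genotype WT per the labels, 3 libraries) and the sh-CLGN group a hairpin against CLGN (CLGN knock down per the labels, 3 libraries). Calmegin, the product of CLGN, helps proteins to fold in the endoplasmic reticulum. Each group rested on 1 hairpin in 1 cell line, all 6 libraries carried the same batch label, and the labels did not say whether the libraries came from separate cultures, so p-values measure only the spread between these libraries.

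Libraries held 14955816 to 16244639 reads on genes. CLGN itself was at 24.1, 21.0 and 26.1 FPKM in sh-NC libraries 1, 2 and 3 and at 9.48, 8.88 and 8.60 FPKM in the sh-CLGN libraries, 37.8% of the sh-NC mean. All 8 hepatocyte markers examined were above 1 FPKM in every library. Their summed level was 6365 to 6648 FPKM in sh-NC and 6640 to 7095 FPKM in sh-CLGN, with 4 called lower and 3 higher, among them ALB (albumin) at 2007 and 1076 FPKM and AFP (alpha-fetoprotein) at 2670.1 and 3782 FPKM on average, and their part in the results was not tested. DCN and THY1 (fibroblast), VWF and KDR (endothelial), PTPRC, CD3E and CD68 (blood) and KRT7 (biliary) stayed under 0.1 FPKM. The summed level of the 7 fibroblast markers was 6.70 to 8.19 FPKM in sh-NC and 47.4 to 49.0 FPKM in sh-CLGN, with all 5 that were tested called higher, and its part in the results was not tested. Most of that sum was COL1A2, at 4.20 FPKM in sh-NC and 38.7 FPKM in sh-CLGN on average. The sums of the endothelial, blood and biliary markers were 3.33 to 3.67, 68.7 to 76.3 and 126 to 134 FPKM in sh-NC, and lower in sh-CLGN at 2.38 to 2.65, 60.7 to 67.9 and 90.6 to 96.2 FPKM, although the biliary marker KRT19 was called higher while SOX9 was called lower. The blood sum was almost all LYZ, at 72.9 and 64.0 FPKM on average, and the endothelial sum mostly PECAM1, at 3.21 and 2.46 FPKM. Mitochondrial transcripts took 3.25 to 4.02% of the reads in sh-NC against 5.49 to 5.80% in sh-CLGN, and their part in the results was not tested either.

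Ribosomes are made mainly in the nucleolus. RNA polymerase I transcribes ribosomal DNA into a long precursor, small nucleolar RNA-protein particles (snoRNPs) guide its chemical modification, and separate sets of assembly factors cut and fold the parts that become the small and the large subunit. MYC, bound to DNA as a pair with MAX at the E-box sequence CACGTG, is known to drive many of these genes in growing cells, and liver cancers are often rich in ribosome biogenesis activity.

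Because the E-box is the sequence to which MYC and MAX bind, promoters were read for it. RefSeq promoter windows on GRCh38.p14, from 250 bases before to 50 bases after each gene start, matched 34 of the 40 genes by symbol. Windows were not matched for MYC, BOP1, RRS1, NOLC1, NOP58 and RRP12. The windows below belong to the genes with the largest falls among those called and matched to a window (FBL, NHP2, POLR1A) and to the genes that rose (NOP10, GNL3, UTP20), and are written 5′ to 3′ on the strand of the gene with every CACGTG in capitals.
FBL, chr19:39846330-39846629, minus strand: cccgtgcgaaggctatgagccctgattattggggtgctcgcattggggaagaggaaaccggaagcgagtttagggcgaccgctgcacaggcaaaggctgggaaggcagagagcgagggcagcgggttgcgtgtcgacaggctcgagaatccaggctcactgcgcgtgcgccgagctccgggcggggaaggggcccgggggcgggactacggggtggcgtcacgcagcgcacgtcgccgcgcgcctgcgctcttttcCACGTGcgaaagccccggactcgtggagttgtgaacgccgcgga
NHP2, chr5:178153836-178154135, minus strand: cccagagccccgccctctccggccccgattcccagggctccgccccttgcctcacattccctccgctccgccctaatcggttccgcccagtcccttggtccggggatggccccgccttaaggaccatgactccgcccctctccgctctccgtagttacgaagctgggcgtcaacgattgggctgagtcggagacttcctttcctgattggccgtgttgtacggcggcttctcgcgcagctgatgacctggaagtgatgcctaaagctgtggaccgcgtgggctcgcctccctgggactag
POLR1A, chr2:86105837-86106136, minus strand: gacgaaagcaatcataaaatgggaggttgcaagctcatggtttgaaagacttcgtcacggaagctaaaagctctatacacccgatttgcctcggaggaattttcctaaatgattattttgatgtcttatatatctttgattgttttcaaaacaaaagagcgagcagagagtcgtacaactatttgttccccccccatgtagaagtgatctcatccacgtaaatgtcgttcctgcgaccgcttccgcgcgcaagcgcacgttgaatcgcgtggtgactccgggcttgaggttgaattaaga
NOP10, chr15:34343087-34343386, minus strand: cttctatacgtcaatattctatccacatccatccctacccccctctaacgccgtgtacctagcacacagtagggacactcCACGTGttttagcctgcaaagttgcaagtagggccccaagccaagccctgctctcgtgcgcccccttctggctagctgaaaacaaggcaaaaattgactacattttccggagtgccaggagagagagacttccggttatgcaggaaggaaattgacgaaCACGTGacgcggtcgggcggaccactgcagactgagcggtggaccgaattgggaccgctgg
GNL3, chr3:52685670-52685969, plus strand: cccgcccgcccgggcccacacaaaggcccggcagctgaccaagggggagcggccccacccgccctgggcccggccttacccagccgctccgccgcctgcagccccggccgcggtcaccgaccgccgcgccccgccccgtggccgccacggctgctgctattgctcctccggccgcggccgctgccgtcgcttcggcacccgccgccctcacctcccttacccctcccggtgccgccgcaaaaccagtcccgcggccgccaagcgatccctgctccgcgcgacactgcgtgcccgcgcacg
UTP20, chr12:101279855-101280154, plus strand: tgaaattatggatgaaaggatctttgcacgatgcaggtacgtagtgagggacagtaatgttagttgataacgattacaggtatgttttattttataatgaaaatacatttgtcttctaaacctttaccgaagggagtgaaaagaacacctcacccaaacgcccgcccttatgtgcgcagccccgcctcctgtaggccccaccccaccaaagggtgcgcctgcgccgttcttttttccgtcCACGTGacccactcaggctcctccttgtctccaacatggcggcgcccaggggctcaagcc

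The FBL window held 1 CACGTG, whose first base lay at position 7 counted from the gene start. NOP10 held 2, at -170 and -11, and UTP20 held 1 at -10. The windows of NHP2, POLR1A and GNL3 held none. CACGTG reads the same on both strands. It stood in 11 of the 34 windows (32.4%), against 2548 of all 35116 RefSeq windows of the same length (7.26%). Among the genes called lower, described next, 8 of 24 windows held it (33.3%), as did 2 of the 3 windows of genes called higher and none of the 6 windows of genes that were not called. Beyond FBL, the genes called lower whose window held it were RRP9, MYBBP1A, UTP4, WDR43, NOP14, BYSL and PES1, and the untested NOP2 held it too. The variant CACGCG, searched on both strands, cannot overlap CACGTG and stood in 10 of the 34 windows (29.4%) and in 11.4% of all windows. By call, CACGCG stood in 7 of 24 windows of genes called lower (29.2%), 0 of 3 called higher and 3 of 6 not called (50%). Tested genes with a CACGTG had a median log2 fold change of -0.29 (10 genes), and those without one -0.40 (23 genes). A match to these letters is a description of the window and not evidence of binding. The set of all windows was not matched to these genes for expression or base composition, and the part of either was not tested.

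Most of the 39 tested genes were lower in sh-CLGN. With limma on log2(FPKM + 1) and Benjamini-Hochberg adjustment over all 13074 genes, 29 of 39 (74.4%) were called lower at an adjusted p of at most 0.05, where 39.0% of all tested genes were called lower. NOP10, GNL3 and UTP20 were called higher (7.69%), where 26.7% of all tested genes were. The remaining 7, POLR1C, NPM1, NOP58, UTP15, HEATR1, DDX10 and WDR12, were not called. By mean FPKM, the 39 genes ran from percentile 34.8 (PPAN) to 99.2 (NPM1) of all tested genes, and most lay in the upper part. The shares of all tested genes were not matched for expression level, and the part of level in the difference was not tested. The changes were moderate, with log2 fold changes, sh-CLGN minus sh-NC, from -0.70 for BOP1 to 0.48 for NOP10. Their median was -0.36, and the median of all tested genes was -0.077. None of the 39 also reached an absolute log2 fold change of 1. Of all tested genes, 3.19% were called lower and 3.09% higher past both thresholds.

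The direction was the same in each library for the called genes. All 3 sh-CLGN libraries lay below all 3 sh-NC libraries in 29 of the 39 genes, where 41.5% of all tested genes showed that order, and above them in 3, where 28.7% did. The groups overlapped in the 7 genes that were not called. Summed over the 40 genes, expression was 1462, 1397 and 1399 FPKM in sh-NC and 1180, 1165 and 1160 FPKM in sh-CLGN. These genes took 0.548 to 0.554% of the reads in sh-NC against 0.495 to 0.506% in sh-CLGN, so the order of the groups was also seen in raw read shares. In bulk RNA, fewer cells of a type and less RNA per cell cannot be told apart.

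**Figure D1:**
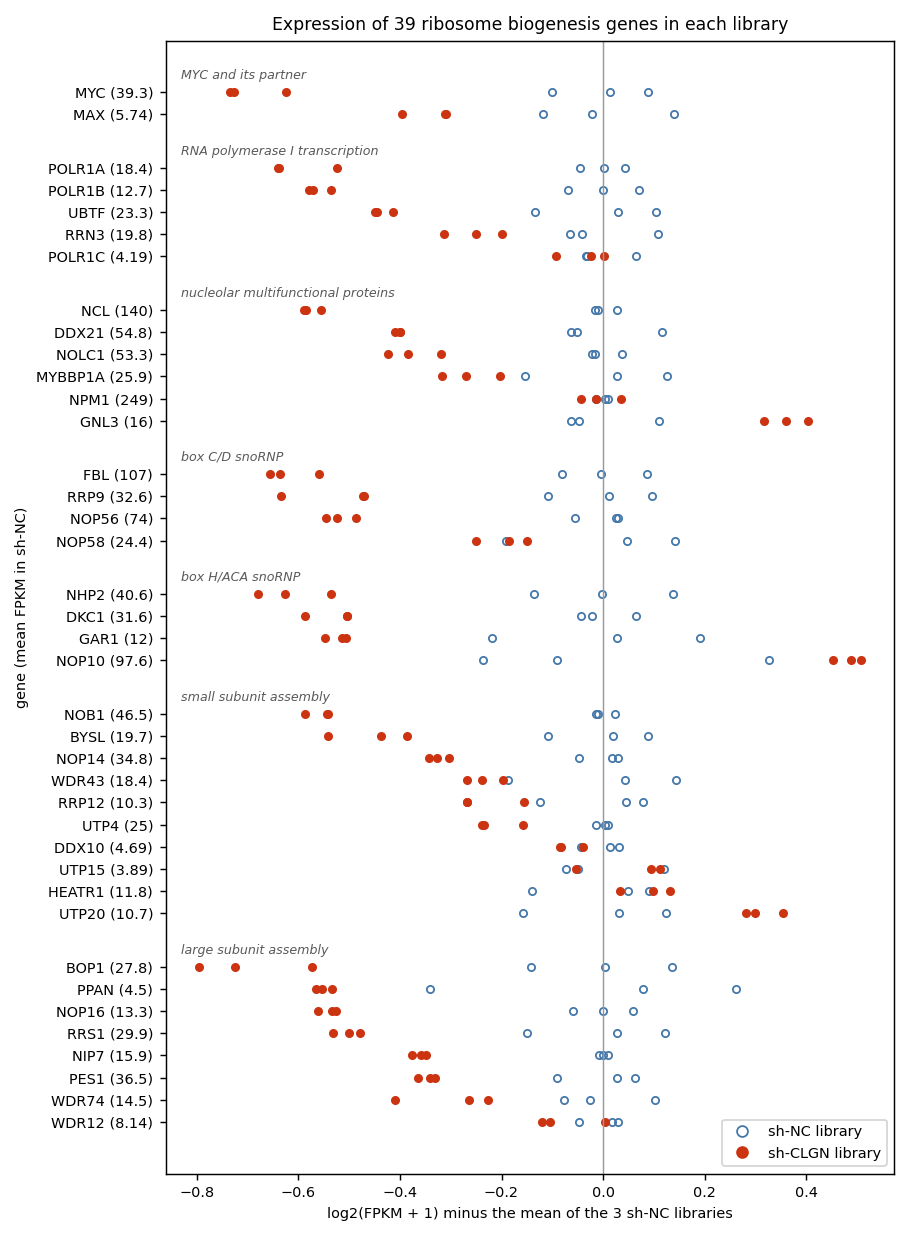
Each point is 1 library, placed at log2(FPKM + 1) minus the mean of the 3 sh-NC libraries, for the 39 tested genes grouped by role, with the mean FPKM in sh-NC beside each name. The filled sh-CLGN points lie left of the open sh-NC points in 29 genes and right of them in NOP10, GNL3 and UTP20.

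A test against a change of 1.2-fold, added after the values were seen, kept 16 of the genes as lower and none as higher, where it called 20.2% and 13.3% of all tested genes. The 16 were MYC, POLR1A, POLR1B, UBTF, NCL, FBL, NOP56, RRP9, DKC1, NHP2, GAR1, BYSL, NOB1, BOP1, NOP16 and RRS1. They included MYC, the largest subunits of RNA polymerase I and snoRNP core proteins of both kinds. Among protein-coding genes alone, NOP58 was also called lower, giving 30 lower and 3 higher of 39, where 45.3% and 26.7% of 10986 protein-coding genes were called.

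Both members of the MYC and MAX pair were lower. MYC, a transcription factor of cell growth, was at 41.7, 39.6 and 36.5 FPKM in sh-NC and 23.3, 23.2 and 25.1 FPKM in sh-CLGN. The groups were well apart, and the sh-CLGN mean was 60.7% of the sh-NC mean, a log2 fold change of -0.70 ± 0.062 (SE, adjusted p = 4.45e-05). MAX, the partner that MYC needs to bind DNA, was expressed at a lower level, at 6.41, 5.20 and 5.62 FPKM in sh-NC and 4.42, 4.42 and 4.11 FPKM in sh-CLGN. Its groups did not overlap either, with a log2 fold change of -0.34 ± 0.078 (SE, adjusted p = 0.00558), but it was not called with read total scaling (-0.18, adjusted p = 0.0774) or GC correction (-0.16, adjusted p = 0.0933). The ratio of MYC to MAX was 6.52, 7.62 and 6.50 in sh-NC against 5.27, 5.24 and 6.11 in sh-CLGN, lower in every sh-CLGN library (exact permutation test, two-sided p = 0.1, the smallest that 3 against 3 allows).

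Among genes of RNA polymerase I transcription, 4 of 5 were lower, where 39.0% of all tested genes were. POLR1A, the largest subunit of the polymerase, was at 17.8, 19.0 and 18.4 FPKM in sh-NC and 11.4, 11.4 and 12.5 FPKM in sh-CLGN, a log2 fold change of -0.60 ± 0.055 (SE, adjusted p = 4.86e-05). POLR1B, which forms the catalytic centre together with POLR1A, fell from 12.7 ± 0.663 to 8.29 ± 0.147 FPKM (mean ± SD, n = 3 libraries a group here and below), a log2 fold change of -0.56 ± 0.055 (SE, adjusted p = 6.84e-05). Both subunits kept about the same share of the sh-NC mean, 64.1% and 65.1%. UBTF, which binds ribosomal DNA and keeps it open, fell from 23.3 ± 2.01 to 16.9 ± 0.251 FPKM (log2 fold change -0.44, SE 0.066, adjusted p = 6.56e-04). RRN3, which brings the polymerase to its promoter, showed a smaller fall, from 19.8 ± 1.38 to 16.4 ± 0.685 FPKM (log2 fold change -0.25, SE 0.063, adjusted p = 0.00763), and it was not called with TPM, read total or quantile scaling (-0.14, -0.069 and -0.032, adjusted p = 0.164, 0.392 and 0.70). POLR1C, a subunit shared with RNA polymerase III, was not called. It was at 4.07, 4.43 and 4.08 FPKM in sh-NC and 4.20, 3.87 and 4.11 FPKM in sh-CLGN, with a log2 fold change of -0.038 and a 95% interval from -0.18 to 0.11. The ratio of POLR1A to POLR1C was 4.37, 4.28 and 4.51 in sh-NC against 2.72, 2.96 and 3.03 in sh-CLGN (exact permutation test, two-sided p = 0.1).

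The abundant nucleolar proteins did not move together. NCL (nucleolin), an RNA-binding protein of the nucleolus, was at 139, 139 and 143 FPKM in sh-NC and 95.1, 92.9 and 93.1 FPKM in sh-CLGN, a log2 fold change of -0.58 ± 0.042 (SE, adjusted p = 1.61e-05). NPM1 (nucleophosmin), a chaperone of ribosomal proteins and histones and the most highly expressed of the 40 genes, was at 251, 247 and 250.2 FPKM in sh-NC and 256, 247 and 242 FPKM in sh-CLGN. Its groups overlapped, and its log2 fold change was -0.0074 with a 95% interval from -0.11 to 0.10. NCL relative to NPM1 stood at 0.554, 0.562 and 0.571 in sh-NC against 0.372, 0.376 and 0.385 in sh-CLGN (exact permutation test, two-sided p = 0.1). Scaling each library by a constant factor does not alter this ratio. NCL was called lower under every scaling, at -0.38 with read totals and -0.26 with quantile normalization, while NPM1 was called higher there, with log2 fold changes of 0.19 and 0.33.

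DDX21, an RNA helicase that acts in ribosomal RNA transcription and processing, fell from 54.8 ± 3.95 to 41.1 ± 0.165 FPKM (log2 fold change -0.40, SE 0.058, adjusted p = 4.84e-04). NOLC1, a chaperone of snoRNPs, fell from 53.3 ± 1.24 to 40.8 ± 1.52 FPKM (log2 fold change -0.38, SE 0.048, adjusted p = 2.55e-04). With quantile normalization neither was called, at -0.12 and -0.096 (adjusted p = 0.137 and 0.145). MYBBP1A, a nucleolar protein that binds MYB, showed a weaker difference, from 25.9 ± 2.60 to 21.4 ± 0.883 FPKM (log2 fold change -0.26, SE 0.076, adjusted p = 0.0154), and it was not called without sh-CLGN 2 (-0.24, adjusted p = 0.057). GNL3 (nucleostemin), a nucleolar GTPase of proliferating cells, went the other way. It was at 15.3, 15.5 and 17.4 FPKM in sh-NC and 21.5, 20.8 and 20.2 FPKM in sh-CLGN, a rise of 30.0% and a log2 fold change of 0.36 ± 0.061 (SE, adjusted p = 0.00118). The ratio of GNL3 to NCL was 0.110, 0.112 and 0.122 in sh-NC against 0.226, 0.225 and 0.217 in sh-CLGN, 1.95 times as high on average (exact permutation test, two-sided p = 0.1).

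**Figure D2:**
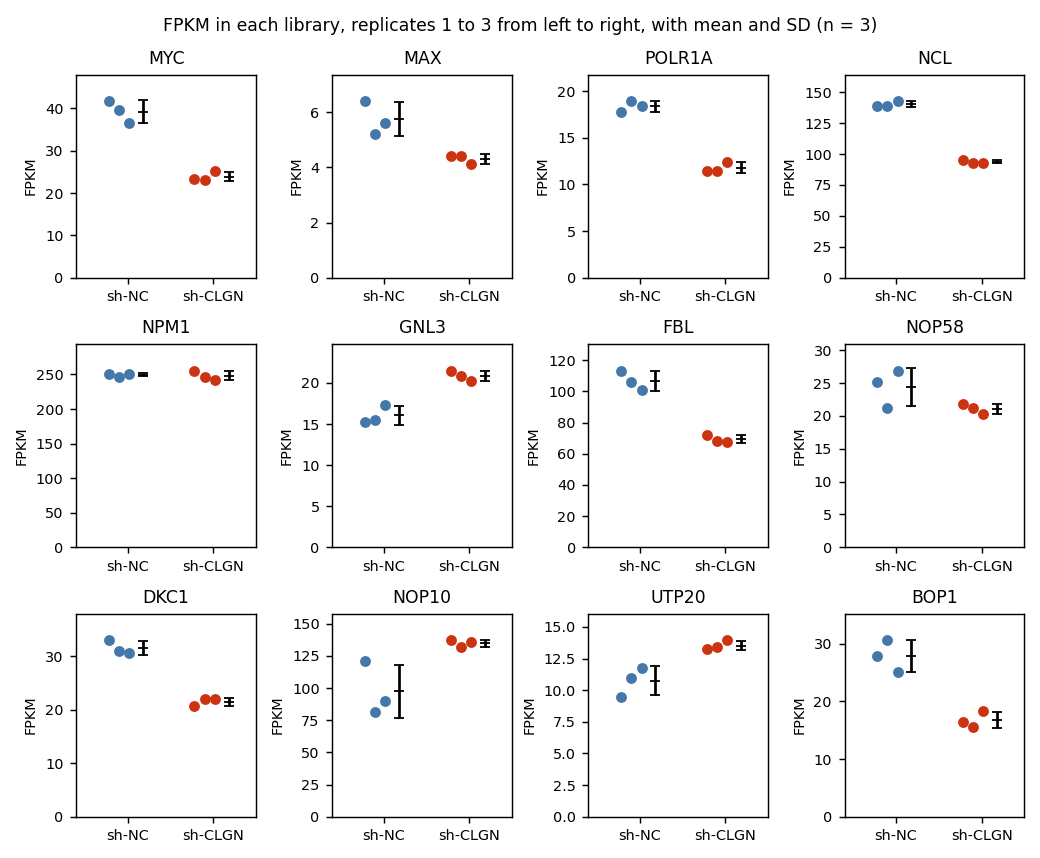
FPKM of 12 of the genes in each library, with the mean and SD of 3 libraries beside each group and every axis starting at 0. NPM1 and NOP58 show overlapping groups, GNL3, NOP10 and UTP20 are higher in sh-CLGN, and the other 7 are lower.

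FBL, NOP56 and RRP9, proteins of the box C/D snoRNPs that methylate ribosomal RNA, were lower. FBL (fibrillarin), the methyltransferase, was at 113, 106 and 101 FPKM in sh-NC and 72.2, 68.3 and 67.4 FPKM in sh-CLGN, a log2 fold change of -0.62 ± 0.057 (SE, adjusted p = 5.08e-05). NOP56, a scaffold of the particle, fell from 74.0 ± 2.45 to 51.3 ± 1.08 FPKM (log2 fold change -0.52, SE 0.046, adjusted p = 4.18e-05). RRP9, specific to the particle that carries the U3 snoRNA, fell from 32.6 ± 2.40 to 22.3 ± 1.48 FPKM (log2 fold change -0.53, SE 0.071, adjusted p = 3.54e-04). NOP58, the scaffold protein that pairs with NOP56, was not called. It was at 25.1, 21.2 and 26.9 FPKM in sh-NC and 21.8, 21.2 and 20.3 FPKM in sh-CLGN, with sh-NC 2 inside the sh-CLGN range, and its log2 fold change was -0.19 (adjusted p = 0.0748). The ratio of NOP56 to NOP58 ran from 2.65 to 3.56 in sh-NC, and all 3 sh-CLGN libraries lay lower, at 2.41 to 2.48 (exact permutation test, two-sided p = 0.1). The 2 genes differed in GC content, at 50.9% for NOP56 and 41.3% for NOP58. After the GC correction described below they lay closer together, at -0.35 and -0.27, and NOP58 was then called lower (limma, adjusted p = 0.00692).

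The box H/ACA proteins, which form the particles that turn uridine into pseudouridine and are also part of telomerase, split in direction. DKC1 (dyskerin), the pseudouridine synthase, was at 33.0, 31.1 and 30.6 FPKM in sh-NC and 20.7, 22.0 and 21.9 FPKM in sh-CLGN, a log2 fold change of -0.53 ± 0.052 (SE, adjusted p = 6.63e-05). NHP2 fell from 40.6 ± 3.94 to 26.1 ± 1.39 FPKM (log2 fold change -0.61, SE 0.076, adjusted p = 2.28e-04). GAR1 fell from 12.0 ± 1.82 to 7.97 ± 0.137 FPKM (log2 fold change -0.52, SE 0.10, adjusted p = 0.00192). These core proteins kept 68.2%, 64.3% and 66.6% of their sh-NC means. NOP10, the smallest core protein, rose instead. It was at 121, 81.6 and 90.3 FPKM in sh-NC and 137, 132 and 135 FPKM in sh-CLGN, a log2 fold change of 0.48 ± 0.13 (SE, adjusted p = 0.0106). The sh-NC libraries were widely spread, sh-NC 1 was nearest to the sh-CLGN group, and no sh-NC library reached it. The ratio of NOP10 to DKC1 was 3.66, 2.63 and 2.95 in sh-NC against 6.65, 6.02 and 6.18 in sh-CLGN, 2.04 times as high on average (exact permutation test, two-sided p = 0.1). The 6 gene pairs whose ratios are given were chosen after the values were seen, so the p-values of these ratios describe the libraries and are not tests of a difference. Adjustment over the 6 tests leaves each p at 0.1 and does not account for that choice.

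Among 10 factors of small subunit assembly, 6 were lower, 1 was higher and 3 were not called, where 39.0% of all tested genes were lower and 26.7% higher. Of the small subunit factors outside the 40 genes, described below, 18 of 44 (40.9%) were lower. NOB1, the nuclease that makes the last cut in small subunit RNA, was at 46.0, 47.3 and 46.2 FPKM in sh-NC and 30.6, 31.6 and 31.6 FPKM in sh-CLGN. The libraries of each group were close together, and the log2 fold change was -0.56 ± 0.043 (SE, adjusted p = 2.16e-05), the largest fall of these 10. BYSL (bystin), which joins late in the nucleus, fell from 19.7 ± 1.41 to 14.1 ± 0.821 FPKM (log2 fold change -0.46, SE 0.068, adjusted p = 6.15e-04). NOP14, a factor of the early particle, fell from 34.8 ± 1.01 to 27.6 ± 0.401 FPKM (log2 fold change -0.32, SE 0.045, adjusted p = 4.19e-04), but was at -0.051 with quantile normalization and not called. UTP4, WDR43 and RRP12 had smaller log2 fold changes of -0.21, -0.23 and -0.23 (adjusted p = 0.00444, 0.0378 and 0.020). UTP4 and WDR43 belong to the complex that first binds the precursor, and RRP12 acts in later maturation and export. Leaving out any of the 6 libraries lost the call of WDR43, RRP12 or both, with adjusted p of up to 0.102 for WDR43 and 0.0697 for RRP12.

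UTP20, a very large scaffold protein of the small subunit particle, rose. It was at 9.49, 11.0 and 11.8 FPKM in sh-NC and 13.2, 13.4 and 14.0 FPKM in sh-CLGN, with no overlap and a log2 fold change of 0.31 ± 0.076 (SE, adjusted p = 0.00740). The related large repeat protein HEATR1 was at 10.6, 12.2 and 12.6 FPKM in sh-NC and 12.0, 12.7 and 13.0 FPKM in sh-CLGN. Its groups overlapped, with a log2 fold change of 0.088 and an interval from -0.077 to 0.25, but it was called higher with read totals (0.27, adjusted p = 0.0132) and quantile normalization (0.25, adjusted p = 0.0152). UTP15, of the same early complex as UTP4, was at 3.64, 3.72 and 4.30 and 4.21, 4.28 and 3.70 FPKM (0.051), and the helicase DDX10 at 4.81, 4.52 and 4.74 and 4.37, 4.54 and 4.37 FPKM (-0.069). Neither was called, with intervals from -0.13 to 0.24 and from -0.20 to 0.064.

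Factors of large subunit assembly were lower in 7 of 8 tested, where 39.0% of all tested genes were lower. PES1, BOP1 and WDR12 form 1 complex that is needed to process large subunit RNA, and they differed among themselves. BOP1 was at 27.9, 30.6 and 25.1 FPKM in sh-NC and 16.4, 15.6 and 18.3 FPKM in sh-CLGN, a log2 fold change of -0.70 ± 0.085 (SE, adjusted p = 2.13e-04). With the deposited values this was the largest fall of the 39 genes, almost equal to that of MYC. After the GC correction described below it was no longer the largest, with BOP1 at -0.39 and MYC at -0.49. PES1 fell from 36.5 ± 2.05 to 28.4 ± 0.347 FPKM (log2 fold change -0.35, SE 0.053, adjusted p = 6.90e-04), but was at -0.068 with quantile normalization and not called. WDR12 was not called, at 7.84, 8.25 and 8.33 FPKM in sh-NC and 8.16, 7.41 and 7.50 FPKM in sh-CLGN, with a log2 fold change of -0.073 and an interval from -0.21 to 0.062.

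NOP16 fell from 13.3 ± 0.579 to 8.84 ± 0.129 FPKM (log2 fold change -0.54, SE 0.052, adjusted p = 6.42e-05). RRS1, which helps to bring the small ribosomal RNA of the large subunit into the particle, fell from 29.9 ± 2.90 to 20.7 ± 0.392 FPKM (log2 fold change -0.50, SE 0.071, adjusted p = 4.55e-04). NIP7 fell from 15.9 ± 0.107 to 12.2 ± 0.131 FPKM (log2 fold change -0.36, SE 0.045, adjusted p = 2.32e-04), and WDR74 from 14.5 ± 0.998 to 11.6 ± 0.826 FPKM (log2 fold change -0.30, SE 0.071, adjusted p = 0.00632). These nucleolar factors act on the precursor of the large subunit. PPAN had low values, at 5.49, 4.72 and 3.28 FPKM in sh-NC and 2.74, 2.69 and 2.66 FPKM in sh-CLGN (log2 fold change -0.55, SE 0.14, adjusted p = 0.00897). Its sh-NC libraries were spread widely while its sh-CLGN libraries were nearly equal. NOP2, a methyltransferase of large subunit RNA, had only 7 to 21 reads a library and lay at 0.107, 0.161 and 0.138 FPKM in sh-NC and 0.0880, 0.234 and 0.278 FPKM in sh-CLGN. Its annotation overlapped AC006064.6 on the same strand over 54.4% of its exon bases, and AC006064.6 had no read in any library.

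Reads in shared exons may limit other values as well. How such reads were assigned, and whether counting used strand, was not given in the sources used here. Of PPAN's exon bases, 59.8% overlapped other genes on the same strand, mostly PPAN-P2RY11, which had no read. Genes on the opposite strand overlapped 27.4% of the exon bases of NHP2, 23.2% of HEATR1 and 20.2% each of NOB1 and NIP7, and their effect was not tested. FBL, NCL, NPM1, MYC, POLR1A, POLR1B, NOP10 and UTP20 shared no exon base with another gene. NPM1 had 45 annotated pseudogene copies, which together held 302 to 386 reads a library against at least 13419 on NPM1 itself. The 2 copies of RRN3 held reads equal to at most 15.2% of those on RRN3.

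**Figure D3:**
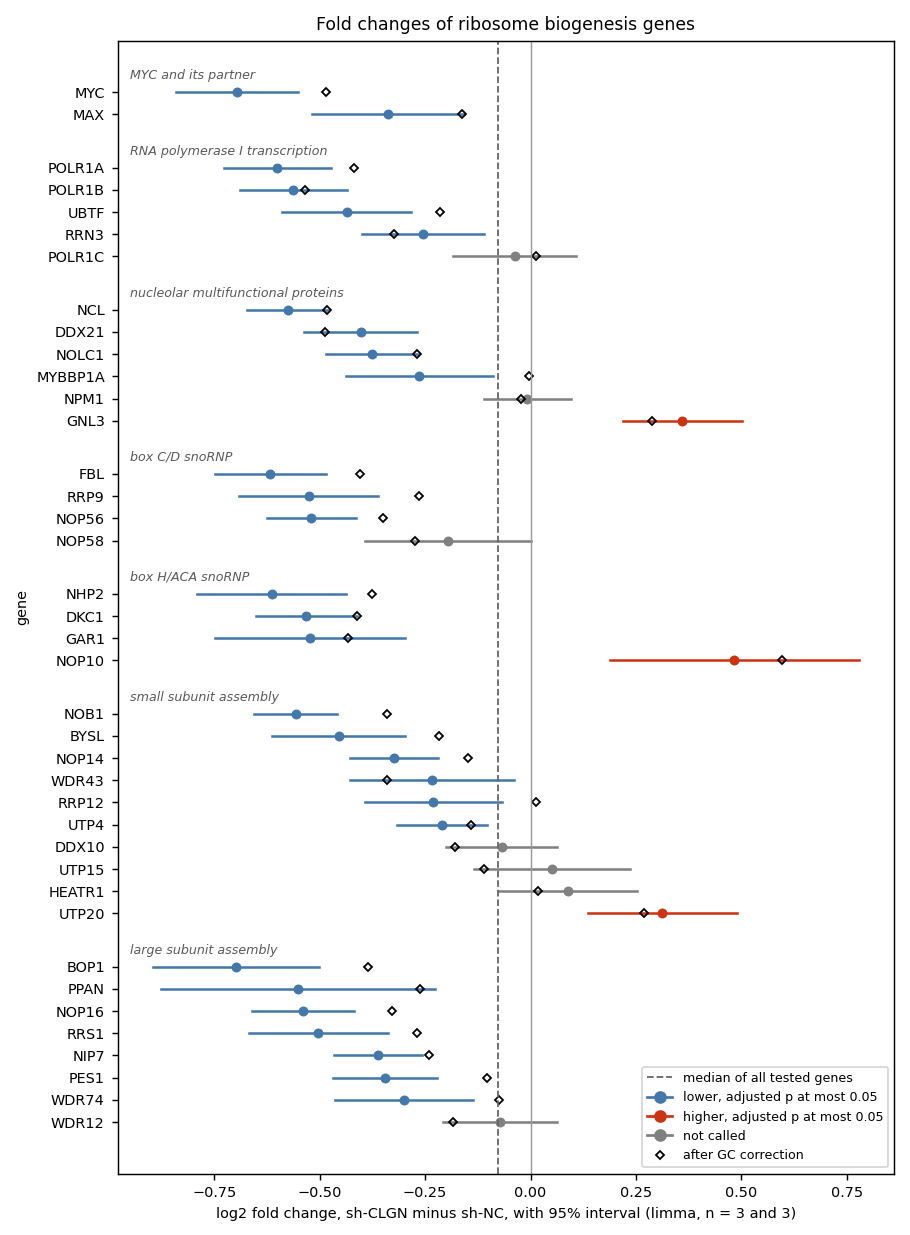
Log2 fold change of each tested gene with its 95% interval (limma, 3 libraries a group), grouped by role, with the median of all tested genes dashed and the value after GC correction as an open diamond. The diamonds of most genes called lower lie closer to 0, and MYBBP1A and RRP12 reach it.

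Fold changes ran with base composition across all genes, so the 39 genes were also examined after a correction for it. The log2 fold change correlated with transcript GC content at a Spearman rho of -0.32 over 13068 tested genes and -0.58 over the 39 genes. The points share the same 6 libraries. Within sh-NC, the difference of sh-NC 3 from sh-NC 1 and 2 correlated with GC content at a rho of -0.64 over 13068 genes, so GC content also separated libraries of 1 group. The GC content of the 39 genes ran from 38.7% in UTP15 to 65.2% in BOP1, with a median of 48.4%, near the 48.1% of all tested genes. The genes called higher lay at 42.3% (UTP20), 41.4% (GNL3) and 48.0% (NOP10).

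After the trend with GC content was removed in each library, 28 of the 39 genes were called lower and 3 higher, where 34.2% and 32.8% of 13068 genes were called. The median of the 39 genes moved to -0.26, and that of all tested genes to -0.0031. The correction also centred each library, so part of both moves was a shift of whole libraries. The median of the 39 genes lay 0.26 below that of all tested genes, against 0.28 with the deposited values. MYC stayed lower at -0.49 (adjusted p = 4.99e-05), POLR1B had the largest fall at -0.54 (adjusted p = 2.39e-05), and DDX21 (-0.49) and NCL (-0.48) followed close to MYC. NOP10, GNL3 and UTP20 stayed higher at 0.60, 0.29 and 0.27. MAX, MYBBP1A, RRP12 and WDR74 were no longer called, at -0.16, -0.0030, 0.013 and -0.074 (adjusted p = 0.0933, 0.953, 0.798 and 0.343). In exchange, NOP58, DDX10 and WDR12 were called lower at -0.27, -0.18 and -0.18.

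**Figure D4:**
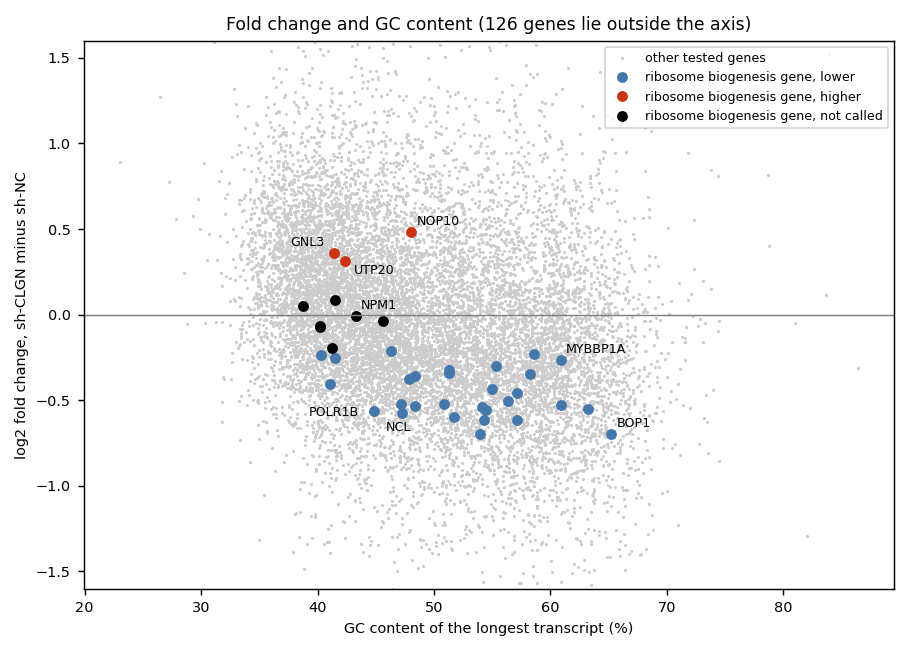
Log2 fold change against the GC content of the longest transcript, for 13068 tested genes in grey and the 39 ribosome biogenesis genes in colour by call, with 126 genes outside the axis. The genes that were not called lie between 38.7 and 45.6% GC, and BOP1 at 65.2% has the largest fall.

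The size of the shift depended on the scaling of the libraries. Each deposited FPKM implied a library size, which was 0.933 to 0.953 of the read total in sh-NC but 1.07 to 1.08 of it in sh-CLGN, so the scaling used by the authors lowered sh-CLGN values relative to read totals. With values scaled to read totals, the median of all tested genes moved from -0.077 to 0.089 and that of the 39 genes from -0.36 to -0.18, with 22 called lower and 5 higher, where 25.9% and 38.3% of all tested genes were called. With TPM scaling the medians were 0.13 and -0.26, with 24 lower and 3 higher, where 22.3% and 31.3% of 17877 tested genes were called. The median of the 39 genes lay 0.28 below that of all tested genes with the deposited values, 0.27 with read totals, 0.38 with TPM and 0.11 with quantile normalization, which called 19 lower and 5 higher, where 32.5% and 30.2% of all tested genes were called. RRN3, MYBBP1A, UTP4, WDR43 and RRP12 were not called with any of these 3 scalings. MAX was not called with read totals, WDR74 with read totals or quantile normalization, and NOLC1, DDX21, NOP14 and PES1 with quantile normalization. Without the expression filter, 27 of the 40 genes were called lower and 2 higher, where 14.1% and 13.6% of 33474 genes were called. With the replicate number as a block, 27 of the 39 were called lower and 3 higher, where 36.4% and 25.1% of all tested genes were called.

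The other genes of the pathway were read from 8 lists, by counts and medians beside all tested genes, 39.0% of which were called lower and 26.7% higher. Large subunit factors outside the 40 genes were lower in 30 of 48 (62.5%) and higher in 3, with a median log2 fold change of -0.22. ZNF622, NLE1 and NOL9 had the smallest adjusted p of them, with log2 fold changes of -0.73, -0.63 and -0.72. Of the small subunit factors, 18 of 44 (40.9%) were lower and 9 (20.5%) higher, with a median of -0.12, shares and a median close to those of all tested genes. AATF, NAT10 (an RNA acetyltransferase) and IMP4 led this list at -0.96, -0.86 and -0.86. The RNA exosome, which trims ribosomal RNA precursors, was lower in 7 of 14 (50%) and higher in 1 (median -0.25), led by EXOSC2 at -0.73, EXOSC3 at -0.53 and EXOSC10 at -0.57.

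Further genes of RNA polymerase I were lower in 5 of 11 (45.5%) and higher in 2 (median -0.24), with ZNRD1 at -0.81, TCOF1 (treacle, which works with UBTF) at -0.56 and POLR1E at -0.44. RNA polymerase III genes, which transcribe transfer RNA and the smallest ribosomal RNA, were lower in 9 of 22 (40.9%) and higher in 5 (22.7%), near the shares of all tested genes, with a median of -0.16. CRCP fell from 28.4 ± 1.49 to 13.7 ± 0.229 FPKM, 48.1% of the sh-NC mean and past both thresholds, and GTF3C2, a subunit of a transcription factor of this polymerase, was at -0.58. Host genes of snoRNAs, which carry snoRNAs in their introns, were lower in 8 of 13 (61.5%) and higher in 2 (median -0.31), with SNHG1 at -0.88, SNHG7 at -0.78 and SNHG15 at -0.63. The snoRNAs annotated within 8 of the 40 genes had at most 9 reads in any library, so their levels could not be read.

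MYC targets outside the nucleolus had a median of -0.36, with 17 of 27 (63.0%) lower and 4 higher. After GC correction their median was -0.19, with 15 (55.6%) lower and 8 (29.6%) higher, where 34.2% and 32.8% of 13068 genes were called. ODC1, which makes polyamines, was at 208, 216 and 209.6 FPKM in sh-NC and 67.9, 64.0 and 61.2 FPKM in sh-CLGN, a log2 fold change of -1.70 ± 0.051 (SE, adjusted p = 7.21e-07) that passed both thresholds. LDHA, the lactate dehydrogenase of glycolysis, was at -0.97, and CDC25A, a phosphatase of cell cycle entry, at -0.75. The other members of the MYC network were mixed, with 4 lower and 4 higher of 11 and a median of -0.081. MYCN, the MYC paralogue, fell from 18.8 ± 0.493 to 10.8 ± 1.23 FPKM (log2 fold change -0.75, SE 0.079, adjusted p = 9.96e-05), MXD1, which competes with MYC for MAX, rose from 3.06 ± 0.139 to 5.54 ± 0.327 FPKM (log2 fold change 0.69, SE 0.066, adjusted p = 6.12e-05), and MLXIP fell past both thresholds at -1.01. After GC correction the median of the MYC network partners turned to 0.094, with 2 (18.2%) lower and 4 (36.4%) higher. That of the RNA polymerase III genes turned to 0.00022, with 8 (36.4%) lower and 4 (18.2%) higher, beside the same 34.2% and 32.8% of all genes. The medians of the other 6 lists, MYC targets included, stayed negative, from -0.27 to -0.098.

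**Figure D5:**
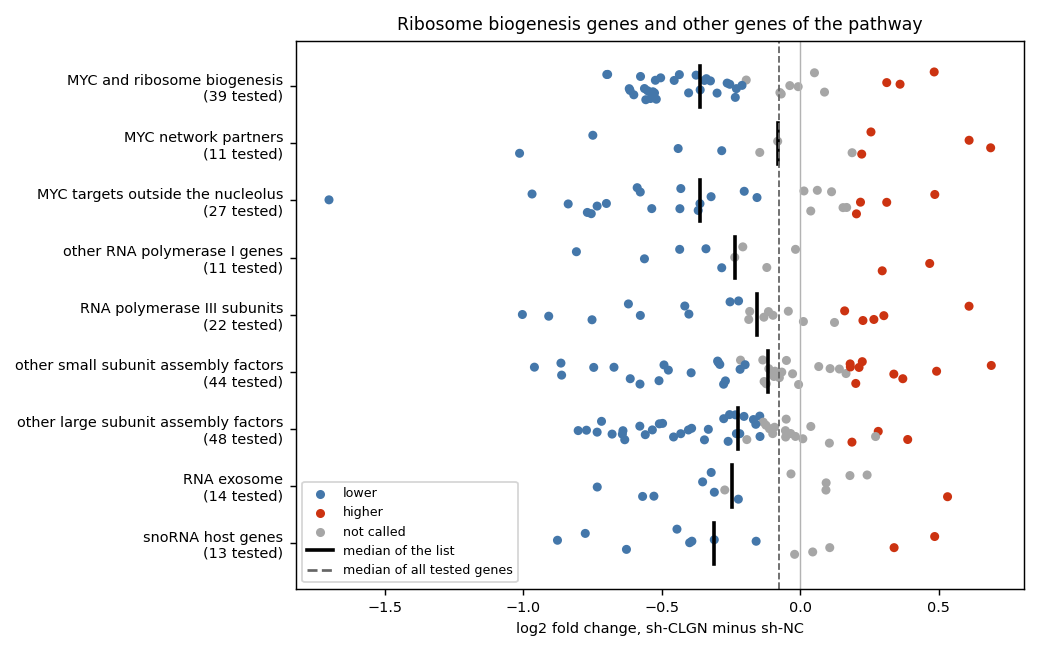
Log2 fold changes of the 39 tested genes and of 8 lists of related genes, 1 point per gene coloured by call, with the list median as a bar and the median of all tested genes dashed. The medians of the 39 genes and of MYC targets outside the nucleolus both lie at -0.36, and that of the MYC network partners at -0.081.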

How the data were processed

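RNA of Hep-G2 cells (6 libraries), prepared with a NEBNext Ultra kit, were analysed from a table of FPKM values per gene that the authors deposited, with gene lengths (in bases) and positions. The submitters' processing notes name GRCh38, HISAT2 2.0.5 and featureCounts. Gene positions equalled GENCODE 29. All FPKM values converted to whole reads within 0.01 of a read, and 1 read on 1 kb was worth 0.0589 to 0.0717 FPKM.

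The genes and lists were chosen with earlier results of these data known. All 40 genes are named, and from each of 8 related lists the 3 with the smallest adjusted p and any past both thresholds. A gene that meets this rule is not reported here. limma 3.58.1 in R 4.3.3 (eBayes with trend) was fitted to log2(FPKM + 1), which understates changes of low genes, for the 13074 genes that reached 1 FPKM or more in 3 or more libraries, two-sided, with no covariate. GC content was that of the longest GENCODE transcript, and its trend was taken out of each library by lowess (span 0.3). Alternatives were a pseudocount of 0.1, no filter, TPM, read total and quantile scaling, GC correction, no trend, voom on recovered reads, protein-coding genes only, a replicate block with and without GC correction, each library left out and, added after the values were seen, the test against 1.2-fold. The fit was tested on simulated data. Ratios were tested by exact permutation with scipy 1.17.1 under Python 3.11.15.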

Additional observations from a re-analysis of the deposited data

How the results depend on the processing

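The median log2 fold change of the 39 tested genes, -0.36 with the deposited values, stayed negative under all 12 alternatives, but several of these could not move it. Using no trend, protein-coding genes only, the replicate block or the test against 1.2-fold left the fold changes of these genes as they were. The median was -0.38 with a pseudocount of 0.1, -0.26 with TPM scaling, -0.18 with read total scaling, -0.13 with quantile normalization and -0.39 with voom. It was -0.26 with GC correction, and adding the replicate block to that correction did not change it. Quantile normalization gave 19 genes called lower and 5 higher, where 32.5% and 30.2% of all tested genes were called. Read total scaling gave 5 higher, where 38.3% of all tested genes were called higher. The test against 1.2-fold gave 16 lower and 0 higher, where 20.2% and 13.3% were called. None of these genes passed both thresholds under any alternative. Without a filter, 27 of 40 genes were lower and 2 higher, where 14.1% and 13.6% of 33474 genes were called, and NOP10 was not called (adjusted p = 0.052). Leaving out each of the 6 libraries gave 26 to 29 lower, 3 higher and none past both thresholds, with medians from -0.38 to -0.35. In those fits 34.9 to 39.6% of all tested genes were called lower and 23.5 to 27.4% higher.

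Some genes changed sign. With TPM scaling POLR1C, NPM1, DDX10 and WDR12 were at 0.075, 0.12, 0.041 and 0.043, and with read totals at 0.12, 0.19, 0.092 and 0.10. With quantile normalization NPM1, NOP58, UTP4 and WDR12 were at 0.33, 0.055, 0.046 and 0.037. With GC correction, alone or with the block, POLR1C, UTP15 and RRP12 were at 0.013, -0.11 and 0.013. NPM1 ranged from -0.029 to 0.011 as each library was left out and was above 0 only without sh-CLGN 3. Of these, UTP4 and RRP12 were called lower with the deposited values, and NPM1 was called higher only with read totals and quantile normalization. The cause was not tested.

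Same-numbered libraries of the groups did not deviate together (correlations of -0.018, -0.046 and -0.15), so the numbers were not taken as pairs. With the replicate number as a block, 27 genes were called lower and 3 higher, where 36.4% and 25.1% of all tested genes were called. NOP2, with 7 to 21 reads a library, was too low to test, and the part of read assignment in its shared exons was not tested.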
